A study of Homo sapiens with 8 samples.

Results

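Amino acid stress and unfolded protein stress are read out by a well-studied set of transcripts, and 38 of these genes were followed here in 4 human pancreatic ductal adenocarcinoma (PDA) cell lines. The genes were chosen by name as known sensors, regulators or outputs of these pathways, with earlier results of these data known. Each is the row whose gene symbol equals a listed member, 38 of 28520 rows in each table. They form 2 arms, an ATF4 and amino acid arm of 22 genes and an endoplasmic reticulum (ER) chaperone arm of 16 genes. Cells of the established lines HPAF-II, Panc8, Panc10.05 and Panc05.04 received PDX1 siRNA or control siRNA, and their RNA was sequenced 3 days after transfection. The names Panc05.04 and Panc10.05 are written without the dot that the labels put after Panc. PDX1 is a homeodomain factor that the pancreas needs to form and that islet beta cells go on using. Each line had 1 library with PDX1 siRNA and 1 with control siRNA, so lines stand in for replicates, and a difference within a line has no replicate of its own.

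When amino acids run short or misfolded proteins build up in the ER, kinases phosphorylate the translation factor eIF2, general translation slows, and the transcription factor ATF4 is translated more efficiently. ATF4 then turns on genes for amino acid synthesis, uptake and tRNA charging, together with stress regulators such as DDIT3 (also called CHOP) and TRIB3. Misfolded protein in the ER also activates the sensor ERN1 (also called IRE1), which splices XBP1 mRNA, and the membrane-bound factor ATF6, and both raise ER chaperones such as HSPA5 (also called BiP). The pathways matter in the exocrine pancreas, whose cells make large amounts of secreted protein. Much of this control acts on translation, phosphorylation or splicing, which gene-level RNA values do not show.

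The arms are known for different promoter elements, and the stretches below are shown because they carry those letters. Promoter windows from RefSeq (GRCh38.p14), running from 250 bases before to 50 after each gene's start, were found for 35 of the 38 genes, with none for PSPH, SHMT2 and ALDH1L2. The ER stress response element (ERSE) was searched on both strands as CCAAT, any 9 bases, then CCACG. It was present in 6 of 16 windows of the ER arm (37.5%), in 0 of 19 of the ATF4 arm, and in 0.0916% of 27305 genes with a window in the table. The 6 were XBP1, HSPA5, HSP90B1, PDIA6, CALR and CRELD2. In the next 5 sequences, read 5′ to 3′ on the gene's strand, capitals mark the element, and CGTGG followed by 9 bases and ATTGG is the same element on the other strand.
HSPA5, chr9:125241376-125241424, minus strand: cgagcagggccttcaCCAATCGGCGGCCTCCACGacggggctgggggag
HSP90B1, chr12:103930201-103930354, plus strand: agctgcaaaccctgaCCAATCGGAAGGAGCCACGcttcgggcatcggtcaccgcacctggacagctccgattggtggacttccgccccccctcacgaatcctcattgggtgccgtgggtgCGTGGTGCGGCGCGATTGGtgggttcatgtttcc
CALR, chr19:12938369-12938417, plus strand: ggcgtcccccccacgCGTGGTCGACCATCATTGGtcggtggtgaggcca
CRELD2, chr22:49918539-49918587, plus strand: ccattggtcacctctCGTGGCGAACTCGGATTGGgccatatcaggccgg
XBP1, chr22:28800588-28800636, minus strand: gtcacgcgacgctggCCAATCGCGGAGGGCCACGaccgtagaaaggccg

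A shorter form of the element, ERSE-II (ATTGG, any 1 base, then CCACG, on either strand), was added after the sequences had been seen. It lay in the windows of SDF2L1, HERPUD1 and HYOU1, 18.8% of the ER arm, in 0 of 19 of the ATF4 arm and in 0.0696% of all genes with a window. HYOU1 held 2 copies, and the first overlaps a TGACGTGG, a motif bound by XBP1 and ATF6, which was in 0.927% of all genes and in no other member.
SDF2L1, chr22:21642099-21642139, plus strand: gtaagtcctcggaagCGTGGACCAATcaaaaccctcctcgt
HYOU1, chr11:119057259-119057408, minus strand: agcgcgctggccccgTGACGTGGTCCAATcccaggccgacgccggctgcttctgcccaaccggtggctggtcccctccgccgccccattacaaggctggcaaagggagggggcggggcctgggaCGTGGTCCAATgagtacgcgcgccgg

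The ATF4 arm was searched for TGATGNAA and TTGCATCA, forms of the composite element that ATF4 shares with C/EBP proteins. TGATGNAA, on either strand, was in 7 of 19 windows of the ATF4 arm (36.8%), those of CHAC1, ASNS, SLC3A2, SLC1A5, SLC7A1, GARS and NARS, in 1 of 16 of the ER arm and in 4.46% of all genes. TTGCATCA was in the windows of CHAC1, SLC1A5 and NARS, in 1 of 16 of the ER arm and in 1.08% of all genes, and each such match also reads as TGATGNAA on the opposite strand. HERPUD1 was the member with both kinds of element. Capitals mark the composite element, and in HERPUD1 also ERSE-II. A match is a run of letters, which does not show that a factor binds there, and its absence says only that the letters are not in this window.
CHAC1, chr15:40953247-40953284, plus strand: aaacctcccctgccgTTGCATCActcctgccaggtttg
ASNS, chr7:97872454-97872491, minus strand: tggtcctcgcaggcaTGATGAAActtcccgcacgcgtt
HERPUD1, chr16:56931951-56932050, plus strand: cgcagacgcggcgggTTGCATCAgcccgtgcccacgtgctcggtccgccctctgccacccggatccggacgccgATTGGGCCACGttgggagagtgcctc

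PDX1 mRNA, the target, was 0.372 FPKM with PDX1 siRNA and 0.914 FPKM with control siRNA in Panc8, 5.37 and 9.61 FPKM in HPAF-II, 0.416 and 1.41 FPKM in Panc05.04, and 0.0998 and 0.188 FPKM in Panc10.05. FPKM is the authors' fragment value per transcript length and library size. PDX1 was lower with its siRNA in 4 of 4 lines (exact two-sided sign-flip permutation p = 0.13, the smallest that 4 pairs allow), and in Panc10.05 it was near 0 in both libraries. Library sums ran from 371329 to 428778 FPKM, with 11186 to 11477 rows at 1 FPKM or more, and total read depth is unknown. Of the epithelial markers of a carcinoma, KRT8 ranged from 305 to 1641 FPKM, while KRT19 was 0.921 FPKM with PDX1 siRNA and 1.55 FPKM with control siRNA in Panc05.04. Of 10 markers of immune, endothelial, stromal, endocrine and acinar cells with a row of their own, 8 were under 1 FPKM in every library, with 2 of them at 0 in all 8. CD68 was the highest, at 8.35 to 75.7 FPKM with PDX1 siRNA and 8.16 to 68.7 FPKM with control siRNA. COL1A1 was at 0.377 to 5.39 FPKM over the 8 libraries.

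All the genes but ALDH1L2 reached 1 FPKM in at least 3 lines, and their levels differed between the lines. Whether the tables of the lines were scaled together is not stated, so levels set across lines carry that limit, and in bulk RNA fewer cells with a transcript and less of it per cell cannot be told apart. Over the 37 genes above 0 in every control library, the highest line exceeded the lowest by a median of 2.97 times in control cells, and 29 genes differed by over 2 times. In 22 genes 1 line lay above the others in both of its libraries: Panc05.04 in 11, HPAF-II in 6, Panc8 in 3 and Panc10.05 in 2. The same counts over all genes are not given, so these cannot be read as particular to the members. Panc05.04 stood highest for the ER chaperones and cofactors HSPA5, HSP90B1, HYOU1 and MANF and for the ER degradation genes HERPUD1, EDEM1 and SEL1L. HPAF-II stood highest for ASNS, the sensor ERN1 and the transporter SLC38A2, and Panc10.05 for ATF4 and DDIT4.

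Several genes, named after their levels were seen, had 1 line apart from the rest. ERN1 was 7.68 FPKM with PDX1 siRNA and 7.13 FPKM with control siRNA in HPAF-II, and at most 2.17 FPKM in the other lines. ASNS, which makes asparagine, was 119 FPKM with PDX1 siRNA and 106 FPKM with control siRNA in HPAF-II, and between 21.0 and 32.2 FPKM in the 6 libraries of the other lines. PHGDH, the first enzyme of serine synthesis, was 0.574 FPKM with PDX1 siRNA and 0.206 FPKM with control siRNA in Panc10.05, against 18.6 to 35.3 FPKM in the other 6 libraries, while PSAT1, the next enzyme, was 54.2 FPKM with PDX1 siRNA and 61.3 FPKM with control siRNA in that line. HERPUD1, which helps assemble the ubiquitin ligase of ER-associated degradation, was 93.2 FPKM with PDX1 siRNA and 91.1 FPKM with control siRNA in Panc05.04 and 23.6 to 30.8 FPKM elsewhere. ALDH1L2, a mitochondrial one-carbon enzyme, was 1.496 FPKM with PDX1 siRNA and 1.24 FPKM with control siRNA in Panc05.04 and at most 0.118 FPKM in the other lines, with 1 control library listed at 0. Its mean was under 1 FPKM, so it was described and not tested.

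**Figure D1:**
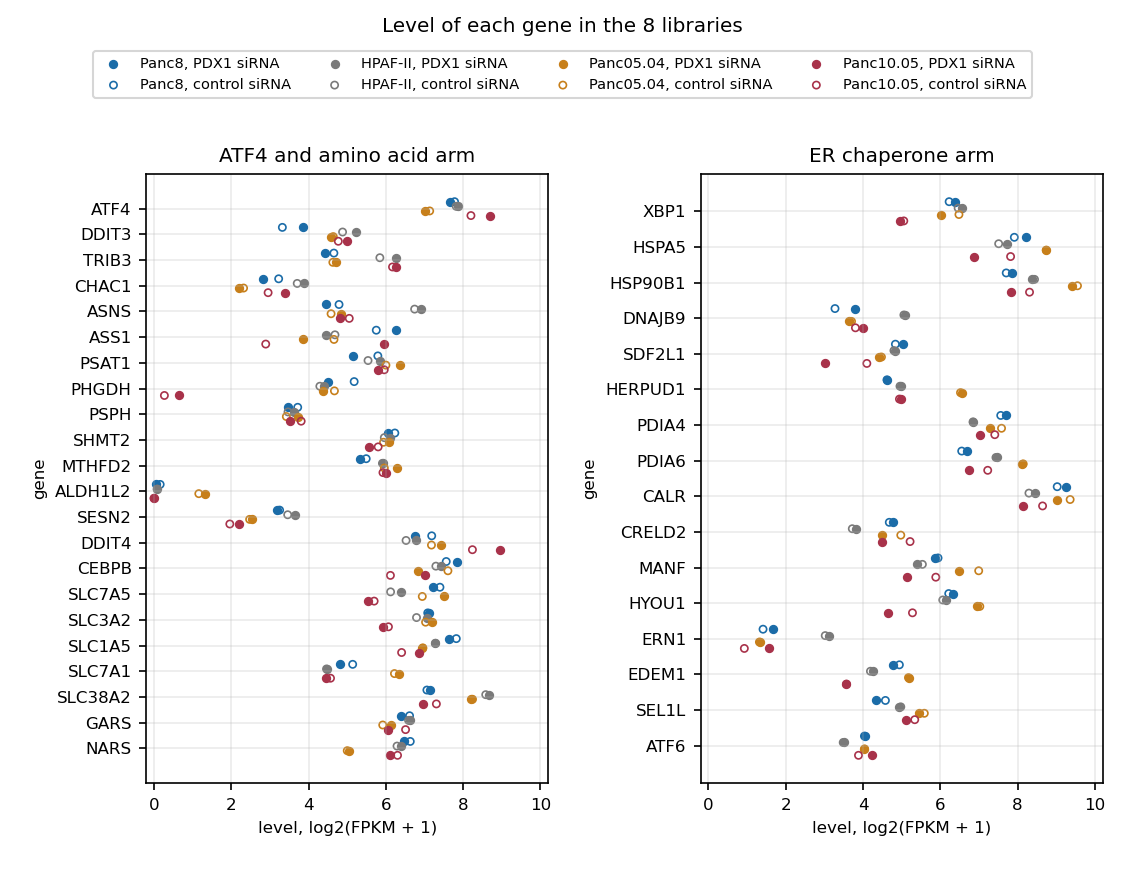
Level of each of the 38 genes in the 8 libraries on the log2(FPKM + 1) scale (x axis), with PDX1 siRNA as filled and control siRNA as open circles and cell lines in colour. The 2 circles of a line mostly lie close together while the lines spread apart, as for HERPUD1 in Panc05.04, ASNS in HPAF-II and PHGDH in Panc10.05.

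Taken over the 4 lines, the question was whether any of these transcripts responded to PDX1 siRNA in a shared way. By limma, blocked on cell line, 0 of the 37 tested members had an adjusted p under 0.05, as had 0 of all 12110 genes tested (0.0%). PDX1 itself, the siRNA target, was thus not called, with a mean log2 ratio of -0.52 ± 0.30 (SD, n = 4). The adjusted p of the members was 0.8975 or more. MANF was the 1 member with an unadjusted limma p under 0.05, which is 2.70% of those tested against 3.63% of all genes (2.02% higher and 1.61% lower). HERPUD1 and ERN1 were higher in 4 of 4 lines, against 7.45% of all genes, and MANF and SEL1L were lower in 4 of 4, against 5.8% of all genes. These counts are near the shares among all genes.

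The mean log2 ratio, PDX1 siRNA over control siRNA on log2(FPKM + 1), was above 0 in 13 of 22 genes of the ATF4 arm and in 4 of 16 of the ER arm. The arm medians were 0.04 and -0.11, and the median over all tested genes was 0.01. The ER median was 0.01 without Panc10.05, and the ATF4 median ranged from -0.03 to 0.12 as each line was left out. The spread between lines was larger than either median: single-line medians ran from -0.18 to 0.14 in the ATF4 arm and from -0.43 to 0.13 in the ER arm.

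**Figure D2:**
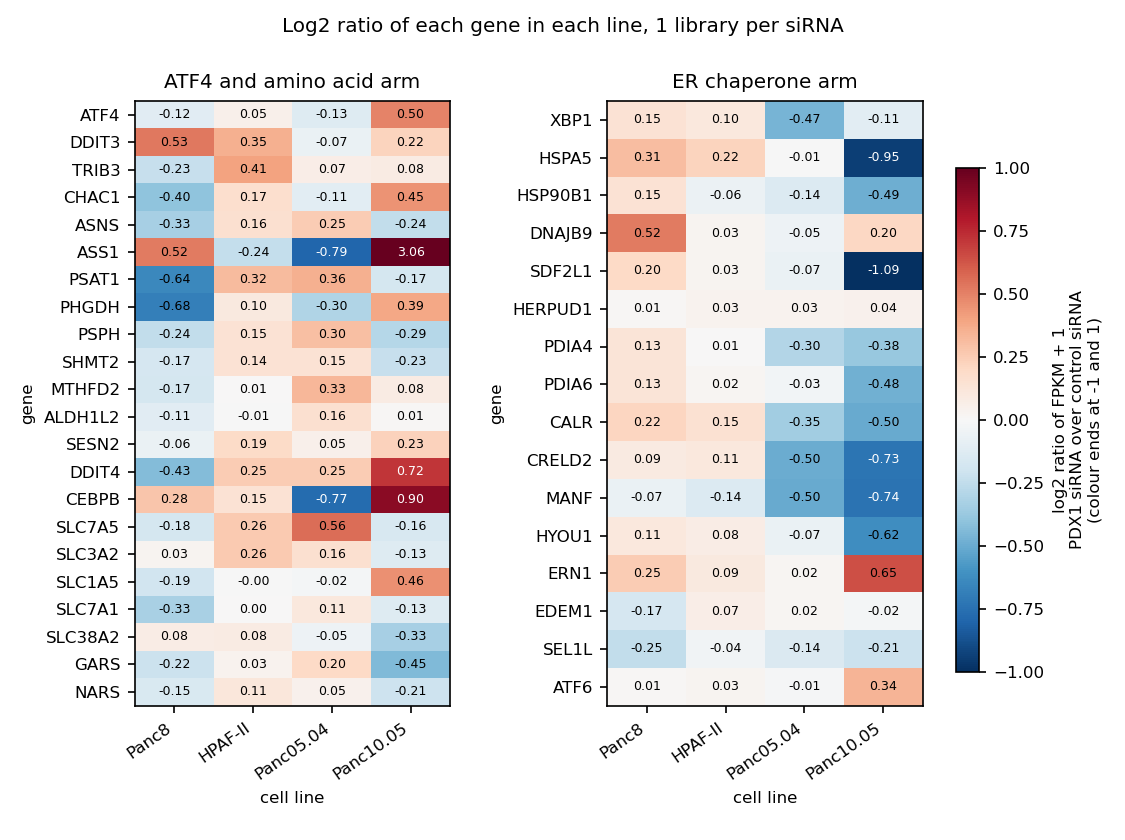
Log2 ratio of FPKM + 1, PDX1 siRNA over control siRNA, for each gene (rows) in each cell line (columns), with 1 library per siRNA; red is higher and blue lower with PDX1 siRNA, and the colour ends at -1 and 1. Panc8 is mostly blue in the ATF4 arm and red in the ER arm, and Panc10.05 is mostly blue in the ER arm, with ASS1 at 3.06 as the highest value.

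MANF, a secreted factor that is retained in the ER and induced by ER stress (chr3:51385237-51389397, hg38), had the lowest mean ratio of the ER arm. It was 57.7 FPKM with PDX1 siRNA and 60.5 FPKM with control siRNA in Panc8, 41.3 and 45.5 FPKM in HPAF-II, 89.1 and 127 FPKM in Panc05.04, and 34.5 and 58.1 FPKM in Panc10.05. The siRNA groups overlapped over the lines, but within each line the PDX1 siRNA library was the lower one. The mean log2 ratio was -0.36 ± 0.32 (SD, n = 4 lines; limma adjusted p = 0.8975), and it was -0.24 without Panc10.05. The unadjusted limma p of MANF was 0.0336.

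SEL1L, the adaptor of the HRD1 ubiquitin ligase (chr14:81471547-81533861), was also lower in each line by a smaller amount. Its levels were 19.2 FPKM with PDX1 siRNA and 22.9 FPKM with control siRNA in Panc8, 29.8 and 30.5 FPKM in HPAF-II, 42.6 and 47.1 FPKM in Panc05.04, and 33.9 and 39.5 FPKM in Panc10.05. The mean log2 ratio was -0.16 ± 0.09 (SD, n = 4; limma adjusted p = 0.8975). HERPUD1 was the member whose ratio varied least between lines. It was 23.8 FPKM with PDX1 siRNA and 23.6 FPKM with control siRNA in Panc8, 30.8 and 30.1 FPKM in HPAF-II, 93.2 and 91.1 FPKM in Panc05.04, and 30.7 and 29.8 FPKM in Panc10.05. Its mean log2 ratio was 0.03 ± 0.01 (SD, n = 4; limma adjusted p = 0.9527), and the ratio was at most 0.04 in any line.

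The 2 ER stress sensors among the members had means above 0. ERN1 (chr17:64043030-64130142) was 2.17 FPKM with PDX1 siRNA and 1.66 FPKM with control siRNA in Panc8, 7.68 and 7.13 FPKM in HPAF-II, 1.54 and 1.496 FPKM in Panc05.04, and 1.98 and 0.904 FPKM in Panc10.05. Its mean log2 ratio was 0.25 ± 0.28 (SD, n = 4; limma adjusted p = 0.8975), on a gene so low that the pseudocount of 1 FPKM matters: the mean was 0.39 with 0.1 FPKM and 0.10 with 5 FPKM. It was 0.12 without Panc10.05. ATF6 was 15.6 FPKM with PDX1 siRNA and 15.4 FPKM with control siRNA in Panc8, 10.4 and 10.2 FPKM in HPAF-II, 15.4 and 15.5 FPKM in Panc05.04, and 17.7 and 13.8 FPKM in Panc10.05. Its log2 ratio was 0.34 in Panc10.05 and between -0.01 and 0.03 in the other 3 lines.

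XBP1, the factor whose mRNA ERN1 splices (chr22:28794560-28800572), had no shared direction. It was 82.1 FPKM with PDX1 siRNA and 74.1 FPKM with control siRNA in Panc8, 93.8 and 87.2 FPKM in HPAF-II, 63.8 and 88.5 FPKM in Panc05.04, and 29.9 and 32.3 FPKM in Panc10.05. It was higher in 2 lines and lower in 2, with a mean of -0.08 ± 0.28 (SD, n = 4; limma adjusted p = 0.9279). The gene row sums spliced and unspliced forms.

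In the ATF4 arm, DDIT3, a transcription factor of sustained stress (chr12:57487953-57520517), had the highest mean after ASS1. It was 13.4 FPKM with PDX1 siRNA and 9.01 FPKM with control siRNA in Panc8, 36.7 and 28.5 FPKM in HPAF-II, 22.9 and 24.0 FPKM in Panc05.04, and 30.8 and 26.3 FPKM in Panc10.05. It was higher in 3 of 4 lines, with a mean of 0.26 ± 0.25 (SD, n = 4; limma adjusted p = 0.8975). The DDIT3 row spans 32.6 kb and shares that interval with MARS, a tRNA synthetase gene at 62.0 to 78.4 FPKM with PDX1 siRNA and 65.7 to 74.7 FPKM with control siRNA. How reads were divided between the 2 genes is not stated, so the DDIT3 value is uncertain.

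ATF4 itself (chr22:39520559-39522686) was 202 FPKM with PDX1 siRNA and 219 FPKM with control siRNA in Panc8, 233 and 225 FPKM in HPAF-II, 128 and 140 FPKM in Panc05.04, and 416 and 294 FPKM in Panc10.05. The PDX1 siRNA and control libraries were close in 3 lines and apart in Panc10.05, and the mean log2 ratio was 0.08 ± 0.29 (SD, n = 4; limma adjusted p = 0.9428). TRIB3, a pseudokinase that restrains ATF4 output, was 75.2 FPKM with PDX1 siRNA and 56.6 FPKM with control siRNA in HPAF-II, and its log2 ratio ran from -0.23 to 0.08 in the other lines. CHAC1, which degrades glutathione, ranged from a log2 ratio of -0.40 in Panc8 to 0.45 in Panc10.05.

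Within single lines each siRNA had 1 library, so no test was possible there. A gene was counted as past 1.5-fold when the ratio of FPKM + 1 reached 1.5 in either direction and at least 1 library had 1 FPKM. Counts of members higher or lower keep genes under 1 FPKM, and the shares over all expressed genes leave such genes out. The members concerned were ALDH1L2 in Panc8, HPAF-II and Panc10.05, and PHGDH in Panc10.05. In Panc8 the ATF4 arm was lower in 17 of 22 genes, with a median log2 ratio of -0.18, while the ER arm was higher in 13 of 16, with a median of 0.13. Over all expressed genes of Panc8 48.2% were higher and the median was -0.01. Past 1.5-fold, 2 members were lower, against 1.27% of all genes, and 0 were higher, against 3.59%.

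Those 2 genes were serine synthesis enzymes. PHGDH was 21.6 FPKM with PDX1 siRNA and 35.3 FPKM with control siRNA in Panc8, 19.99 and 18.6 FPKM in HPAF-II, 19.7 and 24.5 FPKM in Panc05.04, and 0.574 and 0.206 FPKM in Panc10.05. PSAT1, the next enzyme, was 34.6 FPKM with PDX1 siRNA and 54.5 FPKM with control siRNA in Panc8, 56.9 and 45.6 FPKM in HPAF-II, 81.3 and 63.2 FPKM in Panc05.04, and 54.2 and 61.3 FPKM in Panc10.05. PSAT1 was thus lower in Panc8 and Panc10.05 and higher in the other lines. The mean log2 ratios were -0.12 ± 0.47 for PHGDH and -0.04 ± 0.47 for PSAT1 (SD, n = 4; limma adjusted p of 0.9252 and 0.9806). The third enzyme, PSPH, was 10.1 FPKM with PDX1 siRNA and 12.2 FPKM with control siRNA in Panc8, with a log2 ratio of -0.24. The authors' deposited table gave unadjusted p of 0.03555 for PHGDH and 0.04645 for PSAT1 in Panc8, with a q of 0.9996 for both.

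Most other groups of the ATF4 arm were lower in Panc8 too. The mitochondrial one-carbon enzymes SHMT2, MTHFD2 and ALDH1L2 were lower in 3 of 3, the tRNA synthetases GARS and NARS in 2 of 2, and the outputs CHAC1, SESN2 and DDIT4 in 3 of 3. Of these, ALDH1L2 was near 0 in Panc8, at 0.036 FPKM with PDX1 siRNA and 0.118 FPKM with control siRNA. DDIT4, an inhibitor of the growth kinase mTORC1, was 107 FPKM with PDX1 siRNA and 145 FPKM with control siRNA. The exceptions among regulators were DDIT3 and CEBPB, with log2 ratios of 0.53 and 0.28. In the ER arm 7 of 8 chaperones and cofactors were higher, led by DNAJB9, with a log2 ratio of 0.52. Panc8 is also the line where 13 of 13 interferon-response genes were past 1.5-fold higher, with a median log2 ratio of 2.95, and the part of that response in these ratios was not tested.

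In HPAF-II most members were slightly higher with PDX1 siRNA. The ATF4 arm was higher in 19 of 22 genes (median 0.14) and the ER arm in 13 of 16 (median 0.03), while 54.4% of all expressed genes were higher, with a median of 0.01. No member was past 1.5-fold, in a line where 0.743% of all genes were past it higher and 0.585% lower. The 3 genes of the ATF4 arm that were not higher were ASS1, ALDH1L2 and SLC1A5, and those of the ER arm were HSP90B1, MANF and SEL1L. With libraries rescaled by median-of-ratios size factors, 5 genes of each arm were lower. TRIB3, DDIT3 and PSAT1 had the highest ratios, at 0.41, 0.35 and 0.32. The interferon list was higher in 13 of 13 genes here, with a median of 0.45 and 3 past 1.5-fold, and its part was not tested.

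In Panc05.04 the ER arm was lower in 13 of 16 genes, with a median of -0.07, in a line where 57.6% of all expressed genes were higher, with a median of 0.04. The ATF4 arm was higher in 14 of 22 genes, a share near that of all genes, with a median of 0.09, and of 0.04 with median-of-ratios scaling. The 3 ER genes that were higher, HERPUD1, ERN1 and EDEM1, had log2 ratios of 0.03 or less, and with median-of-ratios scaling no ER gene was higher. All 8 ER chaperones and cofactors were lower, from -0.01 for HSPA5 to -0.50 for CRELD2 and MANF. The highest ratios of the ATF4 arm were led by the neutral amino acid transporter SLC7A5, at 180 FPKM with PDX1 siRNA and 122 FPKM with control siRNA, followed by PSAT1, MTHFD2 and PSPH.

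ASS1 and CEBPB had the lowest ratios of their arm in Panc05.04. They were the 2 members past 1.5-fold lower, against 2.35% of all genes, and none was past it higher, against 1.61%. ASS1, which joins citrulline and aspartate on the way to arginine, was 13.6 FPKM with PDX1 siRNA and 24.3 FPKM with control siRNA. CEBPB, a partner of ATF4 and a driver of acute-phase genes, was 114 FPKM with PDX1 siRNA and 194 FPKM with control siRNA. The authors' deposited table gave unadjusted p of 0.005 for CEBPB and 0.0071 for ASS1, with q of 0.555 and 0.661. The interferon list, with 13 of 13 genes lower and a median of -0.46, was also lower in this line, and its part was not tested.

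Panc10.05 had the largest differences of the members, 9 past 1.5-fold, in the line with the broadest changes: 10.2% of all its genes were past 1.5-fold higher and 8.28% lower. The 4 members past it higher were ASS1, CEBPB, DDIT4 and ERN1. The 5 past it lower were SDF2L1, HSPA5, MANF, CRELD2 and HYOU1, all of the ER arm. The ER arm was lower in 12 of 16 genes (median -0.43), the ATF4 arm was higher in 12 of 22 (median 0.04), and 48.7% of all expressed genes were higher, with a median of -0.01. In the ATF4 arm 2 genes counted as higher, PHGDH and ALDH1L2, were below 1 FPKM in both libraries. Without them as many genes of that arm were lower as higher. PDX1 was near 0 in both Panc10.05 libraries, as given above.

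**Figure D3:**
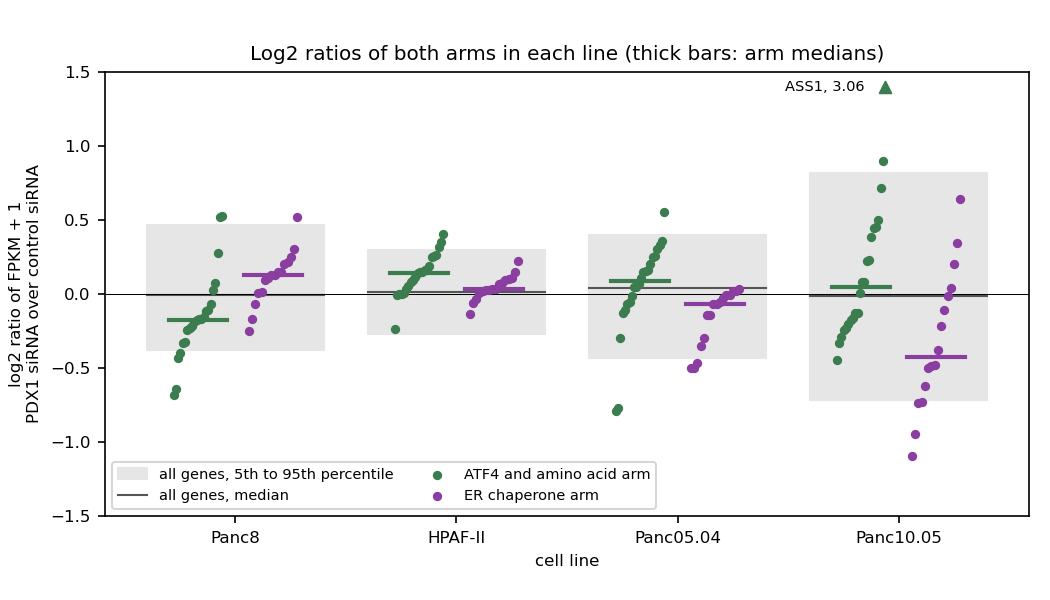
Log2 ratio of FPKM + 1, PDX1 siRNA over control siRNA, of each gene of the ATF4 and amino acid arm (green) and the ER chaperone arm (purple) in each cell line; bars are arm medians and the grey boxes run from the 5th to the 95th percentile of all expressed genes of the line. In Panc10.05 the ER arm has its lowest median, -0.43, in the line with the widest grey box, and ASS1, at 3.06, is drawn as a triangle at the upper edge.

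Of the 8 ER chaperones and cofactors 7 were lower in Panc10.05, with a median of -0.68. HSPA5, the main ER chaperone of the HSP70 family (chr9:125234848-125241387), was 298 FPKM with PDX1 siRNA and 241 FPKM with control siRNA in Panc8, 212 and 182 FPKM in HPAF-II, 425 and 428 FPKM in Panc05.04, and 116 and 225 FPKM in Panc10.05. Its PDX1 siRNA library in Panc10.05 was the lowest of the 8, while it was higher in Panc8 and HPAF-II. The mean log2 ratio over the lines was -0.11 ± 0.58 (SD, n = 4; limma adjusted p = 0.9518). HYOU1, which exchanges the nucleotide of HSPA5 (chr11:119044185-119057246), was 79.4 FPKM with PDX1 siRNA and 73.5 FPKM with control siRNA in Panc8, 69.6 and 66.0 FPKM in HPAF-II, 123 and 129 FPKM in Panc05.04, and 24.2 and 37.9 FPKM in Panc10.05.

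SDF2L1 and CRELD2, small ER proteins induced by ER stress, were among the lowest ratios of Panc10.05. SDF2L1 (chr22:21642253-21644299) was 32.0 FPKM with PDX1 siRNA and 27.6 FPKM with control siRNA in Panc8, 27.5 and 26.9 FPKM in HPAF-II, 20.2 and 21.3 FPKM in Panc05.04, and 7.04 and 16.1 FPKM in Panc10.05. Its log2 ratio of -1.09 in Panc10.05 was the lowest of any member in any line. CRELD2 (chr22:49918630-49927540) was 26.4 FPKM with PDX1 siRNA and 24.7 FPKM with control siRNA in Panc8, 13.2 and 12.2 FPKM in HPAF-II, 21.3 and 30.5 FPKM in Panc05.04, and 21.4 and 36.2 FPKM in Panc10.05. Both were slightly higher in Panc8 and HPAF-II and lower in the other lines, and their means, -0.23 ± 0.59 and -0.26 ± 0.42 (SD, n = 4), had limma adjusted p of 0.8975. Without Panc10.05 the mean of CRELD2 was -0.10 and that of SDF2L1 0.05.

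Other ER members of Panc10.05 included isomerases, chaperones and degradation genes. PDIA6, an isomerase that forms disulfide bonds, was 107 FPKM with PDX1 siRNA and 149 FPKM with control siRNA there; its interval overlaps ATP6V1C2, at 1.75 FPKM or less in each library. HSP90B1, the ER member of the HSP90 family (chr12:103930334-103947930), was 225 FPKM with PDX1 siRNA and 317 FPKM with control siRNA in Panc10.05, 230.3 and 208 FPKM in Panc8, 332 and 346 FPKM in HPAF-II, and 680.3 and 749.8 FPKM in Panc05.04. Its mean log2 ratio was -0.14 ± 0.26 (SD, n = 4; limma adjusted p = 0.8975), and -0.02 without Panc10.05. CALR, a lectin chaperone, was 283 FPKM with PDX1 siRNA and 400.4 FPKM with control siRNA in Panc10.05. All 3 were lower there, as was PDIA4, another isomerase (chr7:149003062-149028690). PDIA4 was 129.98 FPKM with PDX1 siRNA and 169 FPKM with control siRNA in Panc10.05, 206 and 188 FPKM in Panc8, 115 and 114 FPKM in HPAF-II, and 156 and 191 FPKM in Panc05.04. DNAJB9 (chr7:108562144-108574850), a co-chaperone of HSPA5, was the exception, at 15.1 FPKM with PDX1 siRNA and 12.97 FPKM with control siRNA in Panc10.05, and it was 12.9 and 8.69 FPKM in Panc8, 33.0 and 32.3 FPKM in HPAF-II and 11.6 and 12.02 FPKM in Panc05.04. Its interval overlaps THAP5, which was at 8.21 to 17.9 FPKM with PDX1 siRNA and 8.19 to 16.02 FPKM with control siRNA. EDEM1, which routes misfolded glycoproteins to degradation, was 10.8 FPKM with PDX1 siRNA and 10.9 FPKM with control siRNA in Panc10.05, 26.4 and 29.7 FPKM in Panc8, 18.2 and 17.3 FPKM in HPAF-II and 35.8 and 35.2 FPKM in Panc05.04. The log2 ratios of the 3 degradation genes ran from -0.21 to 0.04 in Panc10.05, within the range of the 8 chaperones and cofactors, from -1.09 to 0.20. XBP1 and the sensors ATF6 and ERN1 were at -0.11, 0.34 and 0.65.

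Set beside the elements printed above, in Panc10.05 8 of the 9 ER genes with an ERSE or ERSE-II were lower, with a median log2 ratio of -0.50, and 4 of the 7 without were lower, with a median of -0.02. In Panc05.04 8 of the 9 were lower (median -0.07), and 5 of the 7 without (median -0.05). In Panc8 all 9 were higher (median 0.15), and 4 of the 7 without (median 0.01). In HPAF-II 8 of the 9 were higher (median 0.08), and 5 of the 7 without (median 0.03). Of 21 other tested genes with either form, 12 were lower in Panc10.05, with a median of -0.11. These are counts of a motif found after the direction of many of the genes was known, and no test was made.

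ASS1 was the member with the largest difference (chr9:130444707-130501274). It was 76.4 FPKM with PDX1 siRNA and 53.0 FPKM with control siRNA in Panc8, 20.8 and 24.7 FPKM in HPAF-II, 13.6 and 24.3 FPKM in Panc05.04, and 61.0 and 6.43 FPKM in Panc10.05. In Panc10.05 the ratio of FPKM was 9.49, and the authors' deposited table gave a q of 0.0441, the only q of 0.05 or less among the members in the 4 tables. Of all genes with a test status of OK in the authors' deposited tables, 0.105% were past that q higher and 0.00809% lower in Panc10.05, 0.107% and 0.157% in Panc05.04, 0.93% and 0.0477% in Panc8, and 0.0% either way in HPAF-II. Across lines it was higher in 2 and lower in 2, with a mean of 0.64 ± 1.70 (SD, n = 4; limma adjusted p = 0.8975). It was -0.17 without Panc10.05.

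CEBPB (chr20:50184603-50192691) followed ASS1 in direction in 3 lines. It was 229 FPKM with PDX1 siRNA and 188 FPKM with control siRNA in Panc8, 173 and 156 FPKM in HPAF-II, 114 and 194 FPKM in Panc05.04, and 129 and 68.6 FPKM in Panc10.05. Its control library in Panc10.05 was the lowest of the 8, and the authors' deposited table gave it an unadjusted p of 0.04435 and a q of 0.963 there. The mean log2 ratio was 0.14 ± 0.69 (SD, n = 4; limma adjusted p = 0.9472). The overlapping antisense gene CEBPB-AS1 was at 0.435 FPKM or less in each library.

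DDIT4 (chr10:72273919-72276039) was 107 FPKM with PDX1 siRNA and 145 FPKM with control siRNA in Panc8, 109 and 91.1 FPKM in HPAF-II, 172 and 144 FPKM in Panc05.04, and 497 and 302 FPKM in Panc10.05. It was lower in Panc8 and higher in the other 3 lines, with a mean of 0.20 ± 0.47 (SD, n = 4; limma adjusted p = 0.8975). The mean was 0.02 without Panc10.05 and 0.41 without Panc8. In Panc10.05 the regulators ATF4, DDIT3, TRIB3 and CEBPB were higher in 4 of 4, with a median of 0.36, and the outputs CHAC1, SESN2 and DDIT4 in 3 of 3, with a median of 0.45. SESN2, another brake on mTORC1, was 3.58 FPKM with PDX1 siRNA and 2.90 FPKM with control siRNA in that line.

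**Figure D4:**
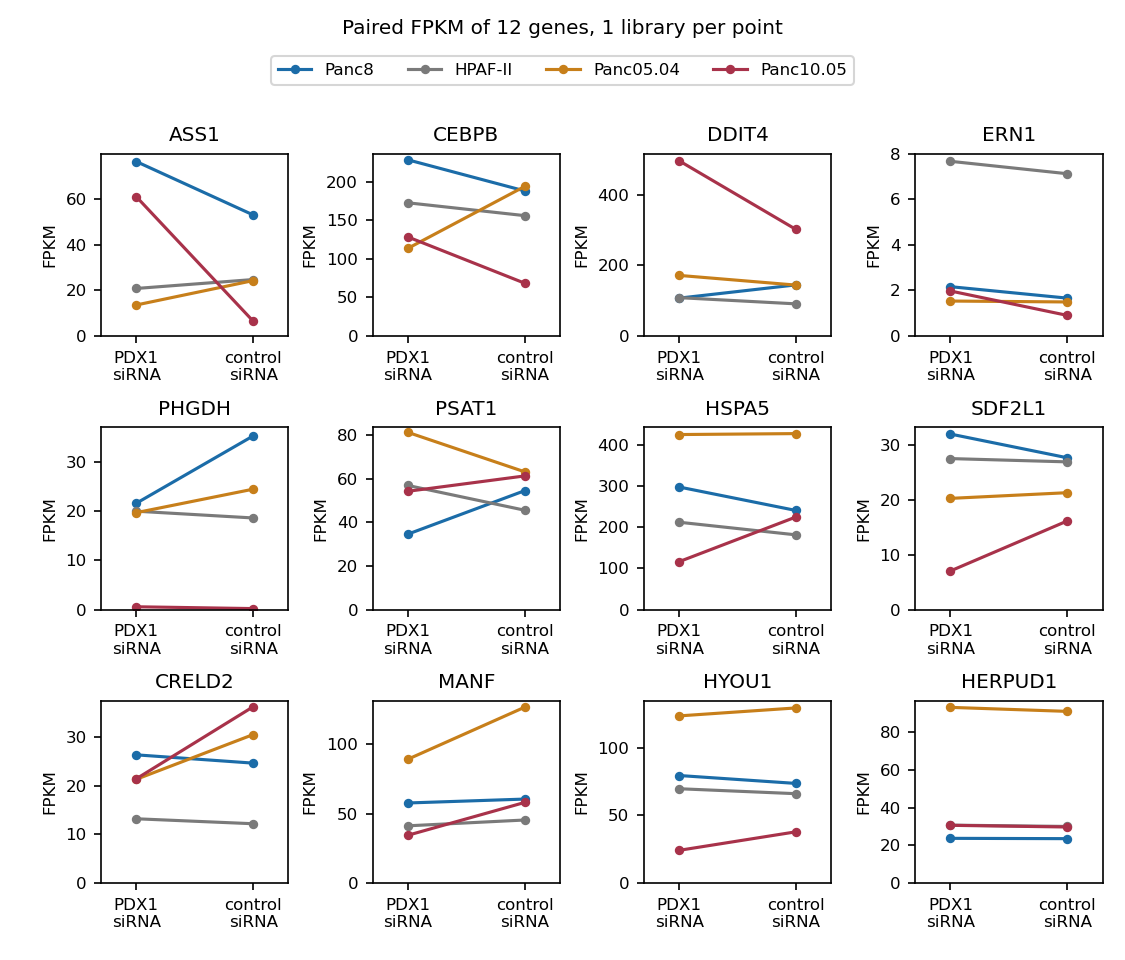
FPKM (y axis, each from 0) of ASS1, CEBPB, DDIT4, ERN1, PHGDH, PSAT1, HSPA5, SDF2L1, CRELD2, MANF, HYOU1 and HERPUD1 with PDX1 siRNA (left) and control siRNA (right); each line joins the 2 libraries of a cell line. The lines slope in different directions for ASS1, CEBPB, PSAT1 and HSPA5, and ASS1 in Panc10.05 stands at 61.0 FPKM with PDX1 siRNA against 6.43 FPKM with control siRNA.

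The uptake and charging genes of the ATF4 arm were mostly lower in Panc10.05. Of 5 amino acid transporters 4 were lower, and both tRNA synthetases were lower. SLC7A5 (chr16:87830023-87869494), the light chain of a transporter for large neutral amino acids, was 148 FPKM with PDX1 siRNA and 168 FPKM with control siRNA in Panc8, 82.6 and 68.8 FPKM in HPAF-II, 180 and 122 FPKM in Panc05.04, and 45.5 and 50.9 FPKM in Panc10.05. Its heavy chain partner SLC3A2 was 60.4 FPKM with PDX1 siRNA and 66.1 FPKM with control siRNA in Panc10.05, and the pair was lowest in that line with either siRNA. SLC1A5, a glutamine transporter, was the exception, at 116 FPKM with PDX1 siRNA and 84.02 FPKM with control siRNA.

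SLC38A2, a carrier of small neutral amino acids (chr12:46358188-46372862), was 140 FPKM with PDX1 siRNA and 133 FPKM with control siRNA in Panc8, 406 and 384 FPKM in HPAF-II, 292 and 302 FPKM in Panc05.04, and 125 and 158 FPKM in Panc10.05. SLC7A1, the carrier of arginine and lysine (chr13:29509414-29595688), was 27.2 FPKM with PDX1 siRNA and 34.3 FPKM with control siRNA in Panc8, 21.1 and 21.1 FPKM in HPAF-II, 79.6 and 73.8 FPKM in Panc05.04, and 20.8 and 22.7 FPKM in Panc10.05. Neither had a shared direction, with means of -0.06 ± 0.19 and -0.09 ± 0.19 (SD, n = 4; limma adjusted p of 0.9472 and 0.9069). GARS, which charges glycine tRNA (chr7:30594565-30634032), was 83.3 FPKM with PDX1 siRNA and 97.1 FPKM with control siRNA in Panc8, 97.5 and 95.3 FPKM in HPAF-II, 68.7 and 59.6 FPKM in Panc05.04, and 66.0 and 90.3 FPKM in Panc10.05. NARS, which charges asparagine tRNA (chr18:57600661-57621945), was 88.2 FPKM with PDX1 siRNA and 98.3 FPKM with control siRNA in Panc8, 83.7 and 77.3 FPKM in HPAF-II, 32.1 and 31.1 FPKM in Panc05.04, and 67.6 and 78.0 FPKM in Panc10.05. Both were lower in Panc8 and Panc10.05 and higher in HPAF-II and Panc05.04.

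Related genes outside the 38 gave no call either. Of 19 other ATF4 targets tested, 0 passed an adjusted limma p of 0.05, 1 had an unadjusted p under 0.05, and 14 had a mean above 0. The 1 was ALDH18A1, an enzyme of proline synthesis named after its values were seen, which was lower in 4 of 4 lines, with a mean of -0.19. The 4 with the largest means were NUPR1, GDF15, ATF3 and JDP2, at 0.34, 0.26, 0.24 and 0.23. In Panc10.05 13 of the 19 targets were higher and 6 lower, with a median of 0.20. Past 1.5-fold there, 6 were higher and 1 lower, against 10.2% and 8.28% of all genes. NUPR1, a small stress-induced chromatin protein, was 4.70 FPKM with PDX1 siRNA and 0.693 FPKM with control siRNA in Panc10.05. It was lower in the other 3 lines, at 1.76 FPKM with PDX1 siRNA and 2.01 FPKM with control siRNA in Panc8. In HPAF-II and Panc05.04 it was near 0 with either siRNA. There it was listed at 0 with PDX1 siRNA, and at 0.083 FPKM (HPAF-II) and 0.113 FPKM (Panc05.04) with control siRNA. GDF15, a secreted stress cytokine, was 165 FPKM with PDX1 siRNA and 95.1 FPKM with control siRNA in Panc8, 159 and 125 FPKM in HPAF-II, 1.57 and 6.20 FPKM in Panc05.04, and 32.0 and 11.6 FPKM in Panc10.05, lower in Panc05.04 and higher elsewhere. Of 16 other cytosolic tRNA synthetases, 0 passed, adjusted or unadjusted, and 13 were lower on average, led by HARS at -0.20 and QARS at -0.16. In Panc10.05 13 of those 16 were lower, with a median of -0.20, and in Panc05.04 13 were higher, with a median of 0.11. GARS and NARS had the same sign as the majority of this list in each line.

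Upstream of ATF4, the 12 genes of eIF2 kinases and eIF2 control held 0 calls, adjusted or unadjusted. EIF2AK2, the kinase activated by double-stranded RNA and itself an interferon-response gene, had the largest mean, 0.51 ± 0.63 (SD, n = 4; limma adjusted p = 0.8975). It was 67.6 FPKM with PDX1 siRNA and 24.5 FPKM with control siRNA in Panc8, and 60.6 and 59.3 FPKM in HPAF-II. PPP1R15A, a phosphatase subunit that restores eIF2, was 29.0 FPKM with PDX1 siRNA and 50.6 FPKM with control siRNA in Panc10.05 and had a mean of -0.19. EIF2AK3, the kinase of the ER, was 5.63 FPKM with PDX1 siRNA and 6.26 FPKM with control siRNA in Panc10.05. It was higher in the other 3 lines, with a mean log2 ratio of 0.05. EIF2AK4, the kinase that senses uncharged tRNA, was 16.01 FPKM with PDX1 siRNA and 20.9 FPKM with control siRNA in Panc10.05. It was higher in 2 lines and lower in 2, with a mean of 0.006. These 2 genes were picked for their role after their values were seen.

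Of 32 other ER folding and degradation genes, 0 passed an adjusted limma p of 0.05, 1 had an unadjusted p under 0.05, 16 had a mean above 0 and 16 below. DNAJC10, an ER disulfide reductase, was lower in 4 of 4 lines, with a mean of -0.20 ± 0.09 (SD, n = 4; limma adjusted p = 0.8975). Its unadjusted limma p was 0.0404. UGGT1, which checks glycoprotein folding, and PDIA5 had means of -0.23 and -0.21, and UBE2J1, an ER ubiquitin-conjugating enzyme, had 0.21. In Panc10.05 the median of these genes was -0.05, with 1 gene past 1.5-fold lower. In the same line 8 of 9 genes of a list of MYC and its growth targets were lower, with a median of -0.62 and 6 past 1.5-fold, although MYC itself, singled out after its values were seen, was 116 FPKM with PDX1 siRNA and 111 FPKM with control siRNA. The interferon list was higher in 11 of 13 genes there, with 6 past 1.5-fold. The part of either list in the ratios of Panc10.05 was not tested.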

How the data were processed

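RNA-seq of 8 libraries was used, 1 table of 28520 rows per cell line. The submitters' processing notes name TopHat2 (version 2), Cufflinks, Cuffdiff and the build hg38. What each tool did, the annotation, the use of strand and total depth are not stated, so no counting interval is given. Per the file headers, the authors deposited 1 FPKM per library together with p-value, q-value and test status, and those p-values and q-values compare 2 libraries, not conditions. No count model was run on FPKM. Row starts looked zero-based, so positions are printed with 1 added; 8 of 36 members then start where RefSeq does, and the other rows have other bounds.

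Ratios are PDX1 siRNA over control siRNA on log2(FPKM + 1), a scale on which low genes look less changed than they are. For the test across lines, the 12110 genes with a mean of at least 1 FPKM entered limma 3.58.1 (R 4.3.3) with line as block and a trended eBayes prior (3 residual and 2.94 prior degrees of freedom), two-sided, with Benjamini-Hochberg adjustment over all of them. The fit was tested on simulated data. P-values set the mean ratio against the spread between the 4 lines after the prior has moved that spread towards the trend over all genes. For HERPUD1, with an SD of 0.01, the limma standard error was 0.067. The labels give the line of each library, which pairs the samples; deviations from group means correlated within lines (r between 0.844 and 0.963). Within a line, past 1.5-fold means a ratio of FPKM + 1 of at least 1.5 and 1 FPKM in either library, with no test. Alternatives were the pseudocount, the filter, median-of-ratios scaling, no block, and leaving out each line. Other steps ran in Python 3.11.15 with pandas 2.3.3, numpy 2.4.6, matplotlib 3.10.9 and scipy 1.17.1.

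The members and lists were chosen with earlier results of these data known. Named with all 8 values were ATF4, DDIT3, XBP1 and HSPA5, the 5 highest and 5 lowest mean log2 ratios of each arm, and any member past 1.5-fold in a line, and PDIA4, whose mean equals that of the fifth lowest at 2 decimals; of each other pathway list, up to 4 genes by size of mean. Symbols found on more than 1 row were left out of those lists.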

Additional observations from a re-analysis of the deposited data

Results flagged for a closer look

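Among 114 groups of 4 libraries or ratios examined, 10 held a value far from the other 3, by a rule that chance alone meets in about 1 group in 20. On the log2(FPKM + 1) scale, the levels with PDX1 siRNA that stood apart were ASNS in HPAF-II at 6.91, PHGDH in Panc10.05 at 0.65, SHMT2 in Panc10.05 at 5.57, SLC3A2 in Panc10.05 at 5.94 and ALDH1L2 in Panc05.04 at 1.32. The levels with control siRNA that stood apart were DDIT3 in Panc8 at 3.32, MTHFD2 in Panc8 at 5.49, GARS in Panc05.04 at 5.92 and ALDH1L2 in Panc05.04 at 1.16. Whether the tables of the lines were scaled together is not stated, which bears on these levels. Of the log2 ratios, ATF6 stood apart in Panc10.05 at 0.34.

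Among the 38 genes, 2 were past 1.5-fold in opposite directions in different lines. ASS1 had a log2 ratio of 3.06 in Panc10.05 and -0.79 in Panc05.04. CEBPB had 0.90 in Panc10.05 and -0.77 in Panc05.04. Each line has 1 library per siRNA, so the difference between the lines was not tested.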

How the results depend on the processing

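The count of members called across lines was 0 under every alternative run, as was the count over all genes, including the fit with no replicate block (0 calls); the line pairs the libraries by the labels. Of 37 members tested, 14 kept the sign of their mean log2 ratio under every alternative, among them DDIT3, ERN1, HERPUD1, MANF and SEL1L. Under median-of-ratios scaling, chosen for these counts after seeing the data, 5 genes of the ATF4 arm and 5 of the ER arm were lower in HPAF-II, where 3 of each were lower without it, and 0 ER genes were higher in Panc05.04, against 3. With a pseudocount of 5 FPKM, 0 ER genes were past 1.5-fold higher in Panc10.05, against 1, ERN1. The count of ER genes past 1.5-fold lower there was 4 with that pseudocount and 4 with median-of-ratios scaling, against 5. The mean of PHGDH was 0.057 with a pseudocount of 0.1 FPKM, against -0.12.

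Leaving out each line in turn moved the ATF4 median between -0.03 and 0.12 and the ER median between -0.18 and 0.01. It changed the sign of the mean of 23 members, whose lowest and highest values were as follows: ASNS -0.137 and 0.058, ASS1 -0.171 and 1.11, ATF4 -0.064 and 0.144, CALR -0.234 and 0.0063, CEBPB -0.114 and 0.441, CHAC1 -0.114 and 0.168, EDEM1 -0.054 and 0.024, GARS -0.211 and 0.0052, HSPA5 -0.243 and 0.174, HYOU1 -0.205 and 0.0396, MTHFD2 -0.029 and 0.139, NARS -0.105 and 0.00104, PDIA6 -0.161 and 0.042, PHGDH -0.295 and 0.061, PSAT1 -0.167 and 0.167, PSPH -0.128 and 0.069, SDF2L1 -0.377 and 0.055, SHMT2 -0.086 and 0.0397, SLC1A5 -0.069 and 0.145, SLC38A2 -0.103 and 0.036, SLC7A5 -0.026 and 0.219, TRIB3 -0.027 and 0.184, and XBP1 -0.157 and 0.047. Of the 14 that kept their sign, 12 moved by over 1.5 times without some line: DDIT3 0.17 and 0.368, DDIT4 0.024 and 0.407, SESN2 0.058 and 0.156, SLC3A2 0.019 and 0.149, SLC7A1 -0.151 and -0.0051, HSP90B1 -0.229 and -0.018, DNAJB9 0.061 and 0.251, PDIA4 -0.223 and -0.054, CRELD2 -0.379 and -0.099, MANF -0.458 and -0.235, ERN1 0.122 and 0.33, and ATF6 0.012 and 0.129. With 1 library per siRNA in each of 4 lines and no stated depth, small differences could not be resolved. The fit across lines did not call PDX1 itself.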
